A study of Oryza sativa with 2 samples.

Results

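The plasma membrane proton ATPases of rice, OSA1 to OSA10, were described in RNA from root hairs. The loci were taken by their locus identifiers in the systematic names of the array's probes, which found 9 of the 10 listed loci with 23 spots, among 23789 loci on the array. OSA9 (Os03g0183900) has a probe whose probe name carries the locus while its systematic name does not, so it is given apart. The names OSA1 to OSA10 follow the usual numbering of the family, since the files hold identifiers only. The study measured 2 one-colour arrays of 1 group. Their titles read "07g39940 over" followed by 1 or 2, and they are called sample 1 and sample 2 after that number. The labels give the cultivar as Don-gin and the age as 3DAG, and describe hairs rubbed off frozen seminal roots of seedlings grown on MSO medium. They do not say what "over" stands for, nor whether the samples came from separate plants or lines. There is no control group, so no test between conditions was possible, and the spread between the samples may be technical.

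Plasma membrane proton ATPases are P-type pumps that spend ATP to move protons out of the cell. The resulting gradient energises the uptake of nutrients through proton-coupled transporters and acidifies the wall of growing cells. The pump is held back by its own C-terminal end, and phosphorylation there followed by binding of a 14-3-3 protein releases it. In Arabidopsis, members of this family are the main pumps of root epidermal cells. Of the rice members, OSA1 is known for its part in stomatal opening and in ammonium uptake.

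Root hair RNA gave bright signals for 3 of the pumps, OSA3, OSA7 and OSA2. Signals were dim for OSA6 and OSA4, and that of OSA5 was not well above background. OSA10, OSA8, OSA9 and OSA1 lay between. Signal here is the processed Cy3 brightness in arbitrary units, and a locus value is the geometric mean over its probes that the scanner software called well above background on both arrays. Brightness also depends on how well each probe binds, so an order of loci by signal is an order of probes and not a measured order of transcript amounts. Probe sequences were not used here. Binding of a probe to RNA of another pump of the family, or to another transcript of its own locus, was not tested. Each probe name carries a tag (CDS, CDS+3′UTR, 5′UTR+CDS or UTR) for the stretch of cDNA the probe was designed on. The place of a probe within that stretch is not known here. By the well above background call 8 of the 9 loci were detected in both samples (88.9%), against 84% of all loci. For such shares, all loci are the 23325 left once spots flagged as outliers were removed, out of 23789 on the array. With the stricter demand that a probe outshine every control probe of random or artificial sequence in both samples (highest 44.0 in sample 1 and 49.9 in sample 2), 6 of 9 remained, against 69.5% of all loci. OSA6 and OSA4 were the loci lost. The present call of the authors' deposited table also took 6 of 9, against 76.9% of all loci. These shares lie near those of the whole array, and 9 loci are few.

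OSA3 (Os12g0638700, chromosome 12) had the brightest locus value of the family, with signals of 94802 in sample 1 and 88221 in sample 2. That value rests on 1 probe, designed on transcript 02. It lay at the 99.3th percentile of detected loci in sample 1 and the 99.2th in sample 2. The other probes of OSA3 carried an outlier flag of the local background in sample 2, not of the spot itself, and were left out. The flagged probe of transcript 01 tagged CDS+3′UTR read 108980 and 102024 in samples 1 and 2. The flagged probe of the same transcript tagged 5′UTR+CDS read 3113 and 2802. With both kept, the locus value was 31802 in sample 1 and 29326 in sample 2, still the brightest of the family.

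OSA7 (Os04g0656100, chromosome 4) was carried by 5 probes on 4 annotated transcripts, all well above background. Its locus value was 12033 in sample 1 and 11966 in sample 2, at the 90.5th and 90.4th percentiles. The probes themselves lay far apart. For transcript 04, the probe tagged CDS+3′UTR read 62585 and 59365 in samples 1 and 2, and the probe tagged CDS read 18038 and 20243. The probe of transcript 03 read 21949 and 19592, and that of transcript 01 read 13845 and 12730. The dimmest was the probe of transcript 02 tagged UTR, with 735 and 819. Probes of OSA7 thus spanned 85.1-fold in sample 1 and 72.5-fold in sample 2. Of the 167 loci with 5 detected probes, 9.58% spanned at least as much in sample 1 and 10.2% in sample 2.

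OSA2 (Os07g0191200, chromosome 7) had 4 probes and a locus value of 6856 in sample 1 and 7543 in sample 2, at the 84.6th and 85.6th percentiles. Both probes annotated to transcript 02 were brighter than both probes annotated to transcript 01 in each sample. Whether they bind only that transcript was not tested, so this is no order of transcript amounts. For transcript 02 the probe tagged CDS read 23053 and 23338 in samples 1 and 2, and the probe tagged CDS+3′UTR read 10533 and 11976. For transcript 01 the brighter probe read 6597 and 7674 and the dimmer 1379 and 1510. The span over probes was 16.7-fold in sample 1 and 15.5-fold in sample 2, and 16.9% and 17.6% of the 472 loci with 4 detected probes spanned at least as much. The probe ranges of OSA7 and OSA2 overlapped, so these neighbours in the order were not told apart by their probes. The 1 OSA3 probe used was brighter than every probe of OSA7 and OSA2. The flagged OSA3 probe tagged 5′UTR+CDS (3113 in sample 1 and 2802 in sample 2) lay within the ranges of both loci.

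By locus values, the middle of the family followed after a gap of 2.72 in sample 1 and 2.94 in sample 2 on the log2 scale between OSA2 and OSA10. Single probes were not parted in this way. The OSA7 probe tagged UTR (735 in sample 1 and 819 in sample 2) was dimmer than the OSA10 probe of transcript 01. The dimmest OSA2 probe read 1379 and 1510. OSA10 (Os06g0181500, chromosome 6) read 1044 in sample 1 and 982 in sample 2 on the probe of transcript 01. Its probe of transcript 02 missed the detection call in each sample (6.47 and 8.10). OSA8 (Os03g0100800, chromosome 3) had 1 probe, with 633 in sample 1 and 759 in sample 2, near the middle of detected loci (51.0th and 53.0th percentiles). The place of OSA10 next to OSA8 rests on leaving out that dim probe: with both probes averaged OSA10 read 82.2 in sample 1 and 89.2 in sample 2, and the order of these loci was not settled.

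OSA1 (Os03g0689300, chromosome 3) lay in the lower part of the array, with locus values of 146 in sample 1 and 149 in sample 2, at the 32.0th and 30.8th percentiles. Its 3 probes spanned 2.25-fold in sample 1 and 2.14-fold in sample 2, and 51.2% and 53.1% of the 1373 loci with 3 detected probes spanned at least as much. The probe of transcript 02 tagged 5′UTR+CDS was its brightest (240 and 232 in samples 1 and 2), whereas in OSA3 the probe with that tag was the dimmest. The probes of transcript 01 read 123 and 130, and 107 and 109. The probe that names OSA9 read 260 in sample 1 and 236 in sample 2, and counting it by its probe name raised the detected loci to 9 of 10.

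The dim members were OSA6, OSA4 and OSA5. OSA6 (Os02g0797300, chromosome 2) had 1 probe, with 28.3 in sample 1 and 35.1 in sample 2. OSA4 (Os05g0319800, chromosome 5) had locus values of 18.5 and 15.5 in samples 1 and 2 from the 2 probes of transcript 02, while its probe of transcript 01 was not well above background (1.72 and 1.44). Both loci stayed below the brightest of those control probes in each sample and were called absent in the authors' deposited table, so their detection is weak. OSA5 (Os08g0241800, chromosome 8) missed the detection call in each sample, with 1.67 in sample 1 and 1.63 in sample 2 on its 1 probe, next to a median of 1.81 and 1.74 for negative control spots. These levels say nothing of other tissues, which were not measured.

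**Figure D1:**
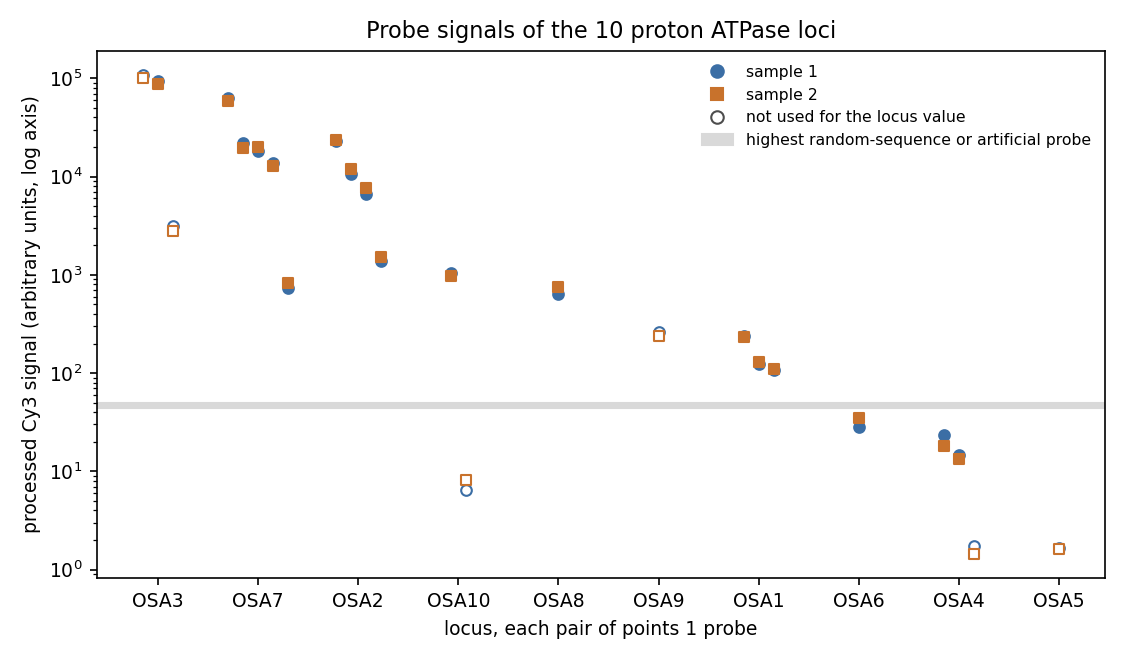
Processed Cy3 signal (arbitrary units, log axis) of every probe of the 10 loci in sample 1 (circles) and sample 2 (squares), with open symbols for probes not used in a locus value and a grey band between the samples' brightest control probes of random or artificial sequence (44.0 and 49.9). Circle and square of a probe lie close together, while probes of OSA7 run between 735 and 62585 in sample 1.

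**Figure D2:**
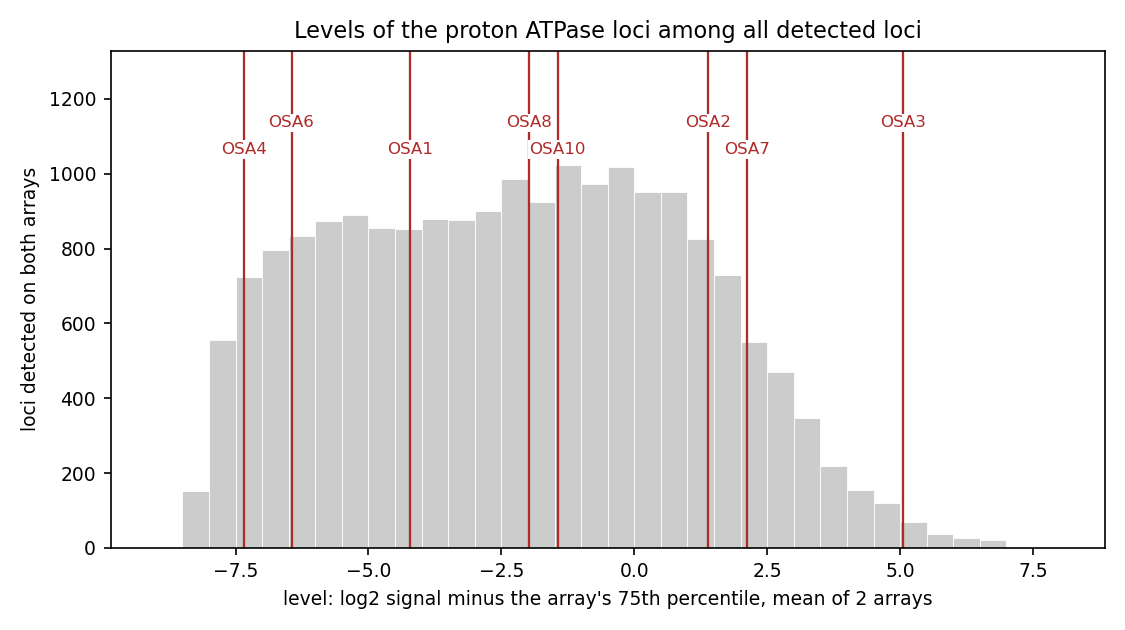
Number of loci detected on both arrays (bars, 0.5 log2 units wide) by level, which is the log2 signal minus the 75th percentile of its array, averaged over the 2 arrays; red lines mark the 8 detected pumps. OSA3, OSA7 and OSA2 lie above the 75th percentile (levels 5.06, 2.13 and 1.39), and the other 5 below it. The median level is -1.71 over the 8 pumps and -2.20 over all detected loci.

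On a scale relative to the 75th percentile of each array (2725 in sample 1 and 2772 in sample 2), the mean level of OSA3 was 5.06 ± 0.09, that of OSA7 2.13 ± 0.02 and that of OSA2 1.39 ± 0.08 in log2 units (SD, n = 2). OSA10 was at -1.44 ± 0.08, OSA8 at -1.99 ± 0.17 and OSA1 at -4.22 ± 0.00095. OSA6 was at -6.45 ± 0.20 and OSA4 at -7.34 ± 0.20. The SDs are those between the arrays, and they are small beside the span of probes within OSA7 and OSA2. The very small SD of OSA1 arose because the differences of its probes between the arrays, in opposite directions, nearly cancelled.

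The samples differed little for the pumps, about as little as for detected loci in general, and 8 loci are few. None of the 8 detected loci was 2-fold apart, against 2.31% of all 19582 detected loci, and the widest difference was 1.22-fold (1.43-fold, for OSA4, with quantile normalization). The median log2 difference, always sample 2 minus sample 1 after scaling, was -0.02 over the 8 loci, against 0.03 over all detected loci, and the median of its size was 0.12 against 0.11. Values were above 0 for 3 of 8 loci, against 57.6% of all loci, and below 0 for 5. The split was 4 above and 4 below with the 75th percentile taken over detected spots, and 2 above and 6 below by the brightest probe of each locus.

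OSA6 had a log2 difference of 0.29, OSA8 of 0.24 and OSA2 of 0.11. On the other side OSA4 was at -0.28, OSA3 at -0.13, OSA10 at -0.11 and OSA7 at -0.03, and OSA1 was at -0.0013. Which locus was furthest apart depended on the setting. OSA6 fell to 0.04 with quantile normalization and 0.02 in the authors' deposited table, OSA4 was at -0.51 with quantile normalization and -0.05 with normexp background correction, and OSA8 stayed between 0.14 and 0.24 under all alternatives run. Among detected loci dimmer than their median the SD of the difference was 0.51, and among brighter ones it was 0.17. A difference of at least the size seen for OSA6 occurred at 19.0% of all detected loci, and one of at least the size seen for OSA8 at 24.0%. These shares pool dimmer and brighter loci. OSA6 is among the dimmer ones, and OSA8, just above the median, is among the brighter ones, where differences spread less.

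Probes of the same locus did not always move one way. For OSA2, 3 of 4 probes were higher in sample 2, by 0.11 to 0.19, and the probe of transcript 02 tagged CDS was at -0.0066. For OSA7, the 3 probes tagged CDS+3′UTR were lower in sample 2 (-0.10, -0.19 and -0.15), and the probes tagged CDS and UTR were higher (0.14 and 0.13). The SD of the difference over the probes of OSA7 was 0.16, against a median of 0.05 over the loci with 5 detected probes. Both OSA4 probes were lower in sample 2 (-0.40 and -0.16). For OSA1 the probes of transcript 01 were higher in sample 2 (0.059 and 0.0055) and that of transcript 02 was lower (-0.068). Over the 18 probes used, 9 were higher and 9 lower in sample 2.

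The scanner software gives each spot an error, which was about 10% of the signal for the bright probes. Among the probes used it reached 17.4% for the dim ones. Probes not well above background had larger errors, between 25.2% (OSA10, sample 2) and 99.6% (OSA5, both samples). Set against the combined error of both arrays, 3 of 18 probes (16.7%) differed by more than 1 error, against 26.2% of all detected probes. These were 1 probe each of OSA4 (1.45 errors), OSA6 (1.25) and OSA8 (1.16). None of the 18 differed by more than 2 errors, against 10.4% of all detected probes. The software's error describes 1 spot and is not a spread between biological samples.

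**Figure D3:**
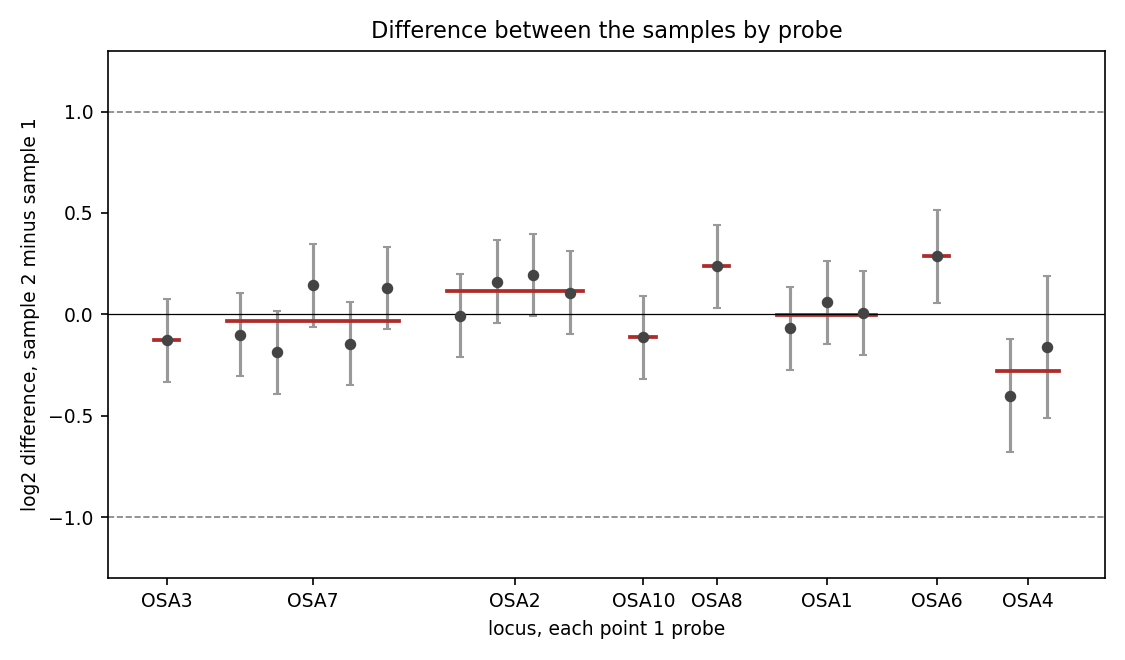
Log2 difference, sample 2 minus sample 1, of each of the 18 probes used (points, with bars of 1 combined scanner software error) and the mean over the probes of a locus (red lines); dashed lines mark 2-fold. Every probe lies between -0.40 and 0.29, inside the 2-fold lines.

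The 14-3-3 proteins, which bind and activate the pumps, gave signals over a wide range in the same RNA. All 8 listed loci were detected in both samples, against 84% of all loci. Of the 8, 6 lay above the 75th percentile of each array, which is taken over its non-control spots. Their median level was 3.75, against -2.20 over all detected loci. GF14B (Os04g0462500) read 251615 in sample 1 and 248978 in sample 2, and GF14C (Os08g0430500) read 157674 and 147055. The dimmest, Os11g0609600, read 1015 and 927, close to OSA10. None of the 8 was 2-fold apart, where 2.31% of all detected loci were. All 8 were brighter than the median of detected loci, and of such loci 0.30% were 2-fold apart. The median log2 difference of the 8 was -0.08 and the widest fold 1.11. Values were above 0 at 1 of 8 loci, where 57.6% of all detected loci were. Under the other settings tried the count was 0 to 2 of 8, and that share does not apply to them.

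The loci listed as vacuolar proton pumps, which move protons into the vacuole, were detected at 5 of 5, against 84% of all loci. Neither the files nor the reference table name them, so they are given by identifier. Os06g0568200 read 68079 in sample 1 and 64565 in sample 2, and Os06g0644200 read 19189 and 17686. One locus, Os02g0802500, was 2-fold apart, where 2.31% of all detected loci were. This locus was dimmer than the median of detected loci, and of such loci 4.33% were 2-fold apart. It read 48.0 in sample 1 and 138 in sample 2, a log2 difference of 1.49 whose SD over 3 probes was 1.20. Its brightest probe read 748 in sample 1 and 825 in sample 2. The other probes read 12.7 and 54.7, and 11.6 and 57.7, which is below the brightest control probe in sample 1 and above it in sample 2. The median log2 difference of the 5 loci was -0.04.

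Facts of the whole arrays that bear on these values are few. The well above background call was given to 83.2% (sample 1) and 85.0% (sample 2) of 43144 non-control spots, and also to 6 of the 24 control probes of random or artificial sequence. No spot was saturated. Of the root hair markers on the array, CSLD1 and XXT1 were both detected, where 84% of all loci were, with signals between 46042 and 51117. Of 6 markers of the stele and endodermis, PHO1;2 and CASP1 were detected (91.4 to 138), against the same 84%. Both were lower in sample 2, by -0.29 and -0.62 on the log2 scale. Whether RNA from inner root tissue contributed to the pump signals was not tested.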

How the data were processed

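RNA of 2 root hair samples was read on 1-colour arrays with Agilent Feature Extraction (9.1 in the submitters' processing notes, 11.5.1.1 in the file headers). The intensity deposited by the authors is the processed Cy3 signal. Per the file headers it had its background subtracted and spatial trends removed, and the arrays were not normalized to each other. The probe design names the build IRGSP5. The authors' deposited table holds log2 values and present calls, made by steps that the sources used here do not give. Its 2 columns were matched to the samples by title, and its rows by order, except 2 whose probe names differed.

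Control spots, 590 named control spots and 1436 spots flagged as outliers on 1 or both arrays were removed from 45151. Log2 signals were scaled to the 75th percentile of each array. Spots of a probe were averaged, and probes well above background on both arrays were averaged by locus, taken from the systematic name. A probe with repeated spots was called when most of its spots were. A locus counted as apart at 2-fold. With 1 group no test was run. The locus averaging was tested on simulated data. By rule all 10 members were named, and from the partner lists the 2 brightest loci and any that were 2-fold apart. Members and lists were chosen with earlier results of these data known. Symbols were checked against RefSeq (ASM3414082v1), which lists GF14A to GF14G, CSLD1, XXT1, PHO1;2 and CASP1 on the right chromosomes (GF14A is also a synonym of GF14F there) and none of OSA1 to OSA10. Its coordinates were not used, and no sequences are shown. Alternatives used limma 3.58.1 in R 4.3.3 for normexp, quantile and loess, and Python 3.11.15 otherwise. The files hold no mean spot signal, so normexp used median signals. The number of arrays, 2, limits the precision.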

Additional observations from a re-analysis of the deposited data

How the results depend on the processing

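No paired analysis was possible because all samples belong to 1 group. The count of pumps 2-fold apart was 0 under each of 9 alternatives and a further one (locus taken also from the probe name, chosen after seeing the data, which also gave 9 detected loci). The median log2 difference of the pumps ranged between -0.11 and -0.0013 and that of the 14-3-3 loci between -0.17 and -0.04. Of 162 results under alternatives 149 moved little. For a difference, that means by less than the SD of the differences over all detected loci, 0.17 for loci brighter than the median and 0.51 for dimmer ones. For a level it means the SD of that locus between the arrays, and for a count at most 1.5 times. Some of the 149 could not move, since the alternative left the probes used for that locus unchanged. The brightest probe, for example, is the only one where 1 probe was used. The sign changes of OSA1 and OSA2 given below, and 6 detected pumps against 8, fall within the 149. The tally is therefore no measure of stability. The per-locus ranges were -0.51 to -0.05 for OSA4, 0.02 to 0.29 for OSA6, 0.14 to 0.24 for OSA8, -0.15 to 0.0061 for OSA1, -0.22 to -0.055 for OSA3 and -0.13 to -0.01 for OSA7. The count of detected pumps was between 6 and 9. Without the filter on dim probes OSA10 changed sign to 0.093, through its probe that was not well above background. OSA2 (brightest probe only, -0.0066) and OSA1 (75th percentile over detected spots, 0.0061) also changed sign. Os02g0802500 was no longer 2-fold apart with normexp, in the authors' deposited table or by its brightest probe, leaving 0 vacuolar pump loci apart under each of these. Mean levels were, with normexp, -3.69 for OSA1, -1.16 for OSA10, 1.28 for OSA2, -5.22 for OSA4 and -4.87 for OSA6. With the brightest probe only they were -3.54 for OSA1, 3.08 for OSA2, -7.06 for OSA4 and 4.47 for OSA7. The causes of these shifts were not tested, beyond the choice of probe itself. Leaving out 1 array leaves the value of the other, between 5.12 and 4.99 for OSA3 and between -7.48 and -7.20 for OSA4, and says nothing about stability with 2 arrays. Signal over background limits OSA4, OSA5 and OSA6.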
